A study of Homo sapiens with 75 samples.

Results

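The 6 genes described here are the liver X receptors NR1H2 (LXRβ, ENSG00000131408_at) and NR1H3 (LXRα, ENSG00000025434_at) and 4 genes that LXRs are known to induce. Those 4 are the transporters ABCA1 (ENSG00000165029_at) and ABCG1 (ENSG00000160179_at), the ubiquitin ligase MYLIP (ENSG00000007944_at) and the acyltransferase LPCAT3 (ENSG00000111684_at). The rule lists their rows under the name LXR receptors and cholesterol efflux genes. It uses no measured value, although earlier results of these data were known when the set was proposed. Each was matched to 1 row of the expression table by its Ensembl identifier. They make up 6 of 19536 gene rows, and all 6 are among the 11767 genes tested. Of the 4 target genes, ABCA1 and ABCG1 are efflux transporters, whereas MYLIP and LPCAT3 act on lipoprotein uptake and on phospholipids.

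The study profiled 75 Affymetrix arrays of DHL4, DHL6, LY7, HBL1 and U2932, established human lines of diffuse large B-cell lymphoma, which arises from mature B lymphocytes. Each line had 5 groups of 3 arrays, namely R406 for 6 or 24 h and DMSO, the vehicle, for 0, 6 or 24 h. R406 is a small-molecule inhibitor of SYK, the tyrosine kinase that relays signals from the B-cell receptor, but the sources used here give no dose for it. The 3 arrays of a group are lettered A to C with no statement on separate cultures, so the p-values cover the spread among these samples alone, and that spread may be technical. Each line stands for itself only, as 1 established line. The labelled cell type was not checked against marker genes, because the rows carry Ensembl identifiers and only the 6 genes were named by identifier.

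LXRs are nuclear receptors that are activated by oxysterols, the oxidised forms of cholesterol, and that bind DNA together with a retinoid X receptor. In cells loaded with sterol they induce ABCA1, which passes cholesterol and phospholipid to lipid-poor apolipoprotein A-I, and ABCG1, which moves cholesterol towards mature high-density lipoprotein. They also induce MYLIP, known as IDOL, which marks the low-density lipoprotein receptor for degradation, and LPCAT3, which puts polyunsaturated fatty acids into membrane phospholipids. In human cells NR1H3 is itself known as an LXR target, while NR1H2 is expressed in most tissues.

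LXR pairs with a retinoid X receptor are known to bind a direct repeat of the half-site AGGTCA with a spacing of 4 bases, written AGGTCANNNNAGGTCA. RefSeq promoter windows (GRCh38.p14, 250 bases before to 50 after the annotated start) were matched by symbol for 5 of the 6 genes, with 4 windows for NR1H3 and none for ABCG1. Both strands of these 8 windows were searched for the repeat with at most 2 mismatches over the 12 half-site bases, and for the E-box CACGTG. The repeat was found in the ABCA1 window only, on the strand opposite to the gene, where it reads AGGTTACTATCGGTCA with 2 mismatches and ends 53 bases before the start. The same window holds the E-box, 141 bases before the start. The 2 matches do not overlap. Of 35116 RefSeq windows of the same length, 2.34% hold the repeat at this tolerance and 7.26% the E-box. With up to 3 mismatches allowed, 18.6% of all windows hold the repeat and the other windows of these genes still do not. The ABCA1 window (chr9:104928106-104928405, minus strand) is shown for its match, in capitals, and the MYLIP window (chr6:16128836-16129135, plus strand) because MYLIP was the gene called higher most often and no match was found in it. A match is a string of letters and not evidence of binding.
ABCA1: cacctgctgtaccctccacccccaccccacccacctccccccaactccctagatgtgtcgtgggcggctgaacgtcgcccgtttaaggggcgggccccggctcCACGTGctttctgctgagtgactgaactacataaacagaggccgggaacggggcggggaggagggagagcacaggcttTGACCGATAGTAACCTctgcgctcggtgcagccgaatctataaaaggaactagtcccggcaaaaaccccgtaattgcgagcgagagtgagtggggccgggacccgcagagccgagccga
MYLIP: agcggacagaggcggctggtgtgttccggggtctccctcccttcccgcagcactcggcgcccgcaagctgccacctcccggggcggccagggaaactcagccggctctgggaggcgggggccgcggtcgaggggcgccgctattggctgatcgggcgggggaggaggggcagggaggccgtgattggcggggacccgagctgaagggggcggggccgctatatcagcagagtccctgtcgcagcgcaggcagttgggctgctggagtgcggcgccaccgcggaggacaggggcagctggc

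The arrays were alike in overall level, with medians between 5.83 and 5.96 on the log2 scale and correlations of at least 0.991 within groups. Array precision is limited by their number, 3 per group. The array with the largest scatter around its group mean was U2932 DMSO 6 h replicate A, with a residual SD of 0.163 over the genes tested. The median SD of a gene within groups, a different measure, was 0.0910. Values are log2 expression on the scale of the deposited table, and an R406 response is the mean of R406 minus the mean of DMSO in the same line at the same time. A gene is called higher or lower at a Benjamini-Hochberg adjusted p under 0.05 from limma, adjusted over all 11767 genes in that comparison. Groups are said not to overlap where no array of the lower group reaches any array of the higher. This is a description that uncalled responses can share, and its share over all genes tested was not computed. These are relative amounts in bulk RNA, in which a change in all cells and a change in the share of some cells cannot be told apart.

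Before treatment the 6 genes differed between the lines. Each passed the F-test over the lines at 0 h, as did 89.4% of the genes tested. ABCG1 line means ranged over 4.05 log2 units, or 16.5-fold, and the low end of that range lies below 5.88, the level that a group mean had to pass somewhere for a gene to be tested. It was highest in DHL4, with arrays at 8.74, 8.80 and 8.68, followed by HBL1 at 7.24, 7.44 and 7.41 and LY7 at 6.15, 5.93 and 6.01. In U2932 it read 4.93, 5.00 and 4.69 and in DHL6 4.50, 4.41 and 5.18. The last pair of lines did not differ (adjusted p = 0.251), and both lay below that level. The 3 higher lines did not overlap with each other or with the lower pair.

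MYLIP, above 5.88 in all 25 groups, ranged over 2.95 log2 units, or 7.73-fold, in the order DHL4 (9.55 ± 0.04), DHL6 (8.55 ± 0.02), LY7 (8.19 ± 0.07), U2932 (7.56 ± 0.06) and HBL1 (6.60 ± 0.08, each SD, n = 3). Every neighbour in that order differed, with the largest adjusted p at 1e-09 between DHL6 and LY7. ABCA1 followed the order DHL4 (7.01 ± 0.27), LY7 (6.49 ± 0.24), DHL6 (5.80 ± 0.06), HBL1 (5.27 ± 0.10) and U2932 (5.20 ± 0.18), and the last pair did not differ (adjusted p = 0.619). DHL4 thus had the highest mean of ABCG1, MYLIP and ABCA1, and also of NR1H3 and LPCAT3.

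NR1H3 lay under 5.88 in every line at 0 h. Its means were 5.83 ± 0.18 in DHL4, 5.56 ± 0.20 in LY7, 5.52 ± 0.18 in DHL6, 5.17 ± 0.17 in HBL1 and 4.73 ± 0.08 in U2932. LY7 and DHL6 did not differ (adjusted p = 0.779), and the step from DHL4 to LY7 was 0.27 (adjusted p = 0.0352). This NR1H3 step was lost without LY7 replicate B (0.15, adjusted p = 0.28), without DHL4 replicate A (0.20, adjusted p = 0.182) or B (0.25, adjusted p = 0.0928), and under 4 other settings (0.15 to 0.27), so the order of these lines is not settled. Of these settings, the replicate block compares the lines at the fitted level of replicate A and not at group means. NR1H2 lay above 5.88 in all 25 groups. It was highest in DHL6 (7.52 ± 0.09), HBL1 (7.49 ± 0.13) and U2932 (7.31 ± 0.09), which were not told apart as neighbours (adjusted p of 0.873 and 0.157), and lower in DHL4 (6.77 ± 0.17) and LY7 (6.54 ± 0.16, adjusted p = 0.0732 between these, which passed without replicate B of either line at 0.33 and 0.31). LPCAT3 varied by 0.91 log2 units between DHL4 (7.95 ± 0.10) and U2932 (7.04 ± 0.05), with HBL1 (7.61 ± 0.16), DHL6 (7.51 ± 0.08) and LY7 (7.41 ± 0.09) between them. Neither HBL1 and DHL6 (adjusted p = 0.276) nor DHL6 and LY7 (adjusted p = 0.339) differed.

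**Figure D1:**
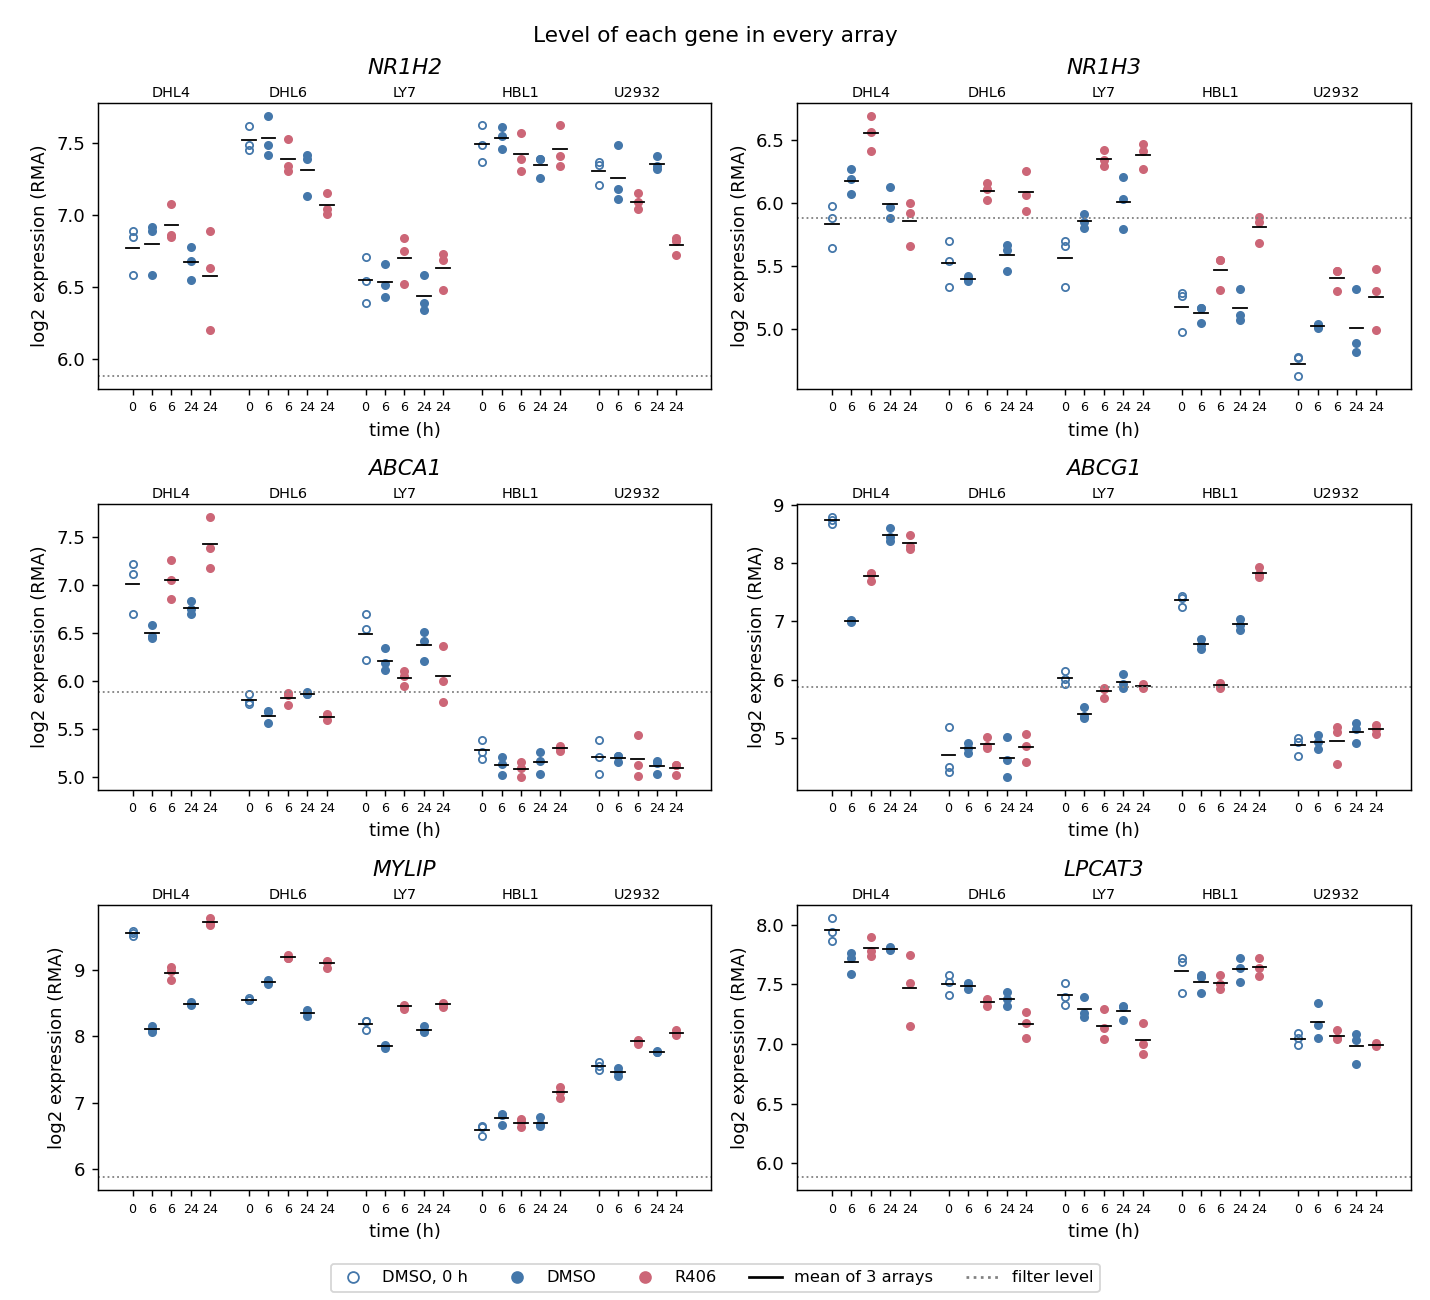
Log2 expression of the 6 genes on every array, 1 panel per gene, by cell line and group (DMSO at 0, 6 and 24 h, R406 at 6 and 24 h). Points are single arrays, bars are means of 3 arrays, and the dotted line marks 5.88, above which at least 1 group mean had to lie for a gene to be tested. The MYLIP arrays of a group lie close together, and those of NR1H3 and ABCA1 in HBL1 and U2932 lie mostly under the dotted line.

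Over the 5 lines and both times, the 6 genes give 60 R406 responses, of which 22 were called higher, 6 lower and 32 neither. The 36.7% called higher stand beside 22.0% of all responses of all genes tested, and the 10.0% called lower beside 23.9%. MYLIP gave 9 and NR1H3 8 of the 22 higher calls. In 15 of the 60 responses both groups lay below 5.88, and 4 of these were called, 3 of NR1H3 and 1 of ABCG1.

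By line, the count at 6 h was 4 of 6 genes higher and 0 lower in DHL4, where 25.5% of genes tested were called higher and 26.7% lower. In DHL6 it was 2 higher and 0 lower (19.8% of all genes in each direction), in LY7 3 higher and 0 lower (25.4% and 22.4%). HBL1 had 1 higher and 1 lower (11.1% in each direction), and U2932 2 higher and 0 lower (17.8% and 10.5%). At 24 h DHL4 had 2 higher and 1 lower (31.2% and 38.0% of all genes), DHL6 2 higher and 1 lower (25.2% and 35.5%) and LY7 2 higher and 2 lower (26.7% and 32.5%). HBL1 then had 3 higher and 0 lower (21.3% and 22.2%), and U2932 1 higher and 1 lower (16.1% and 20.5%). The median response of the 6 genes was highest in DHL4 at 6 h (0.46, against -0.022 over all genes tested) and lowest in DHL4 at 24 h (-0.12, against -0.006).

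**Figure D2:**
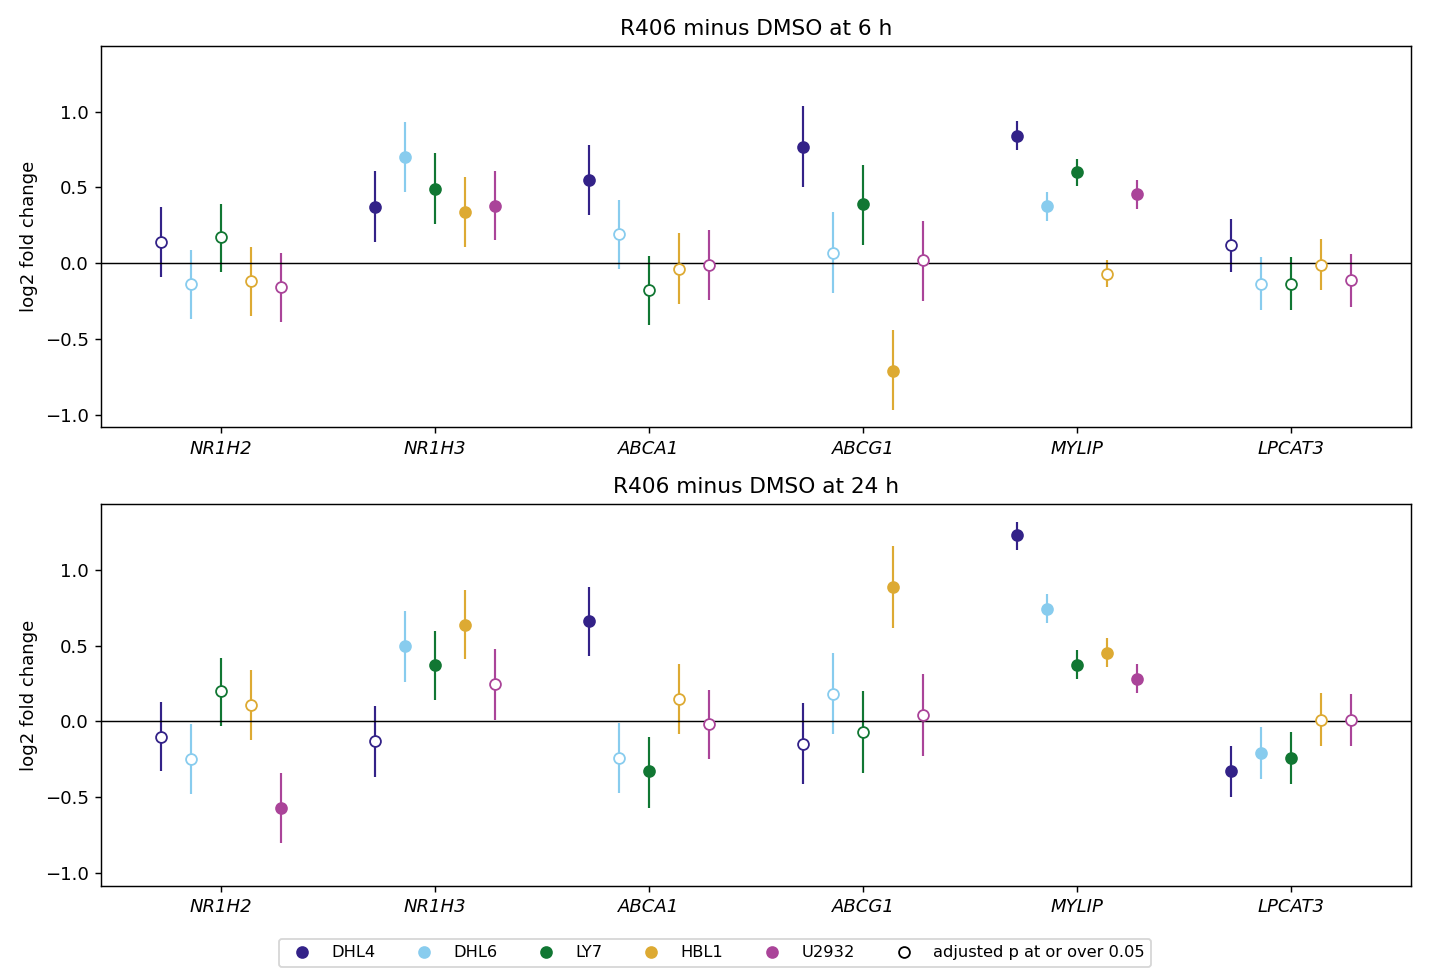
R406 responses of the 6 genes, log2 of R406 over DMSO of the same time, in 5 lines at 6 and 24 h. Points are differences of group means with 95% confidence intervals from limma, and filled points passed an adjusted p of 0.05. NR1H3 at 6 h and MYLIP at 24 h were called higher in all 5 lines, from 0.34 to 0.70 and from 0.28 to 1.23, and the ABCG1 responses in HBL1 lie on opposite sides of 0 at 6 and 24 h.

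NR1H3, the LXRα gene, was higher with R406 at 6 h in all 5 lines, a pattern that 2.13% of the genes tested had. In DHL6 the DMSO arrays read 5.42, 5.40 and 5.38 and the R406 arrays 6.16, 6.11 and 6.02, a rise of 0.70 ± 0.12 (SE, adjusted p = 1.13e-06). In LY7 DMSO gave 5.80, 5.91 and 5.85 and R406 6.29, 6.34 and 6.42 (0.49 ± 0.12, adjusted p = 0.00027). In each of the 5 lines every R406 array lay above every DMSO array, and the share of all genes with this pattern was not computed.

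The other 3 rises of NR1H3 at 6 h were smaller as estimates, although the lines' responses did not differ detectably (F = 1.62, adjusted p = 0.236). DHL4 went from 6.27, 6.19 and 6.07 to 6.41, 6.69 and 6.56 (0.37 ± 0.12, adjusted p = 0.00483). U2932 went from 5.04, 5.01 and 5.03 to 5.46, 5.46 and 5.30 (0.38 ± 0.12, adjusted p = 0.00962). This last value was the same, 0.38 with an adjusted p of 0.0267, without the scattered U2932 array. HBL1 went from 5.05, 5.17 and 5.17 to 5.55, 5.55 and 5.31 (0.34 ± 0.12, adjusted p = 0.0234). In both U2932 and HBL1 all 6 arrays lay below 5.88, and the HBL1 call was lost after cyclic loess normalization (0.32, adjusted p = 0.0585), without DMSO replicate A (0.30, adjusted p = 0.101), without R406 replicate A (0.31, adjusted p = 0.0934) or without R406 replicate B (0.30, adjusted p = 0.103).

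At 24 h NR1H3 was called higher in 3 lines. In HBL1 the DMSO arrays read 5.07, 5.32 and 5.11 and the R406 arrays 5.68, 5.89 and 5.85 (0.64 ± 0.12, adjusted p = 5.45e-06). Both HBL1 group means, 5.17 and 5.81, lay below 5.88. In DHL6 they read 5.67, 5.46 and 5.63 with DMSO and 6.06, 5.94 and 6.25 with R406 (0.50 ± 0.12, adjusted p = 0.0002). LY7 had 6.03, 5.79 and 6.21 against 6.47, 6.41 and 6.27 (0.37 ± 0.12, adjusted p = 0.00464), which without DMSO replicate B was 0.26 (adjusted p = 0.0759). The groups did not overlap in these 3 lines. In DHL4 they overlapped, with 5.97, 6.13 and 5.88 for DMSO and 5.66, 5.92 and 6.00 for R406 (-0.13 ± 0.12, adjusted p = 0.301), and in U2932 the response was 0.25 ± 0.12 (adjusted p = 0.0915). The U2932 response passed without DMSO replicate C (0.40, adjusted p = 0.00753) or without R406 replicate B (0.38, adjusted p = 0.0147). The DHL4 response at 24 h was lower than that at 6 h, with a difference of -0.51 ± 0.16 (adjusted p = 0.00671).

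Averaged over the 5 lines, NR1H3 rose by 0.46 ± 0.05 at 6 h (1.37-fold, adjusted p = 2.25e-11) and 0.32 ± 0.05 at 24 h (1.25-fold, adjusted p = 1.46e-07). On these averages 2 of the 6 genes were called higher and none lower at 6 h, beside 32.1% and 29.1% of all genes, and 3 higher and 2 lower at 24 h, beside 33.7% and 39.9%. The responses of the lines did not differ detectably at 6 h (F = 1.62, adjusted p = 0.236) and differed at 24 h (F = 6.56, adjusted p = 0.000368). The vehicle arrays also changed with time: NR1H3 was higher than at 0 h by 0.15 ± 0.05 at 6 h (adjusted p = 0.0125) and 0.19 ± 0.05 after 24 h (adjusted p = 0.00187), on average with DMSO alone. The rise with R406 was 0.61 at 6 h and 0.51 at 24 h when DMSO at 0 h was the reference (adjusted p of 8.18e-16 and 2.49e-13).

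NR1H2, the LXRβ gene, gave 1 call in 10 responses, lower in U2932 at 24 h. The DMSO arrays there read 7.34, 7.32 and 7.41 and the R406 arrays 6.82, 6.72 and 6.84. The groups did not overlap, and the difference was -0.57 ± 0.11 (1.48-fold lower, adjusted p = 5.54e-05). Against DMSO at 0 h it was -0.52 (adjusted p = 0.000126). The other 9 responses ran from -0.25 in DHL6 at 24 h (95% interval -0.48 to -0.02, adjusted p = 0.0562) to 0.20 in LY7 at 24 h (-0.03 to 0.42, adjusted p = 0.137), and in each of them the arrays of the groups overlapped. The DHL6 value passed without DMSO replicate B (-0.34, adjusted p = 0.0192).

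The lines differed in the NR1H2 response at 24 h (F = 7.15, adjusted p = 0.000184) and not detectably at 6 h (F = 2.02, adjusted p = 0.146). The average at 24 h was -0.12 ± 0.05 (adjusted p = 0.0296), and this call was lost on leaving out any of 6 arrays, most of all DHL4 R406 replicate B (-0.08, adjusted p = 0.105). At 6 h the average was -0.02 (95% interval -0.13 to 0.08, adjusted p = 0.708). With DMSO alone no change of NR1H2 was called in any line at either time, from -0.20 to 0.05.

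The efflux transporters ABCA1 and ABCG1 were called in some lines only, and each had calls in both directions. ABCA1 was called higher in DHL4 at both times. At 6 h the DHL4 DMSO arrays read 6.47, 6.58 and 6.45 and the R406 arrays 7.05, 6.85 and 7.26 (0.55 ± 0.12, 1.47-fold, adjusted p = 4.86e-05). At 24 h they read 6.83, 6.75 and 6.70 with DMSO and 7.71, 7.18 and 7.38 with R406 (0.66 ± 0.12, 1.58-fold, adjusted p = 1.13e-06). The groups did not overlap at either time.

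With DMSO alone ABCA1 in DHL4 was lower at 6 h than the 6.70, 7.22 and 7.11 read at 0 h (-0.50 ± 0.12, adjusted p = 0.00038). The R406 arrays at 6 h overlapped with the 0 h arrays, with a difference of 0.05 (adjusted p = 0.77), and those at 24 h were higher than at 0 h by 0.42 (adjusted p = 0.00124).

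In LY7 ABCA1 was called lower at 24 h, with 6.41, 6.21 and 6.51 for DMSO and 5.78, 6.36 and 6.00 for R406 (-0.33 ± 0.12, adjusted p = 0.0106). These groups overlapped, and the call was lost without R406 replicate A (-0.20, adjusted p = 0.167), without DMSO replicate C (-0.27, adjusted p = 0.0736) and in a fit of the LY7 arrays alone (-0.33, adjusted p = 0.0584). In the other 7 responses ABCA1 ran from -0.24 to 0.19. None of these was called, although the groups did not overlap in DHL6 at either time, in LY7 at 6 h and in HBL1 at 24 h. In HBL1 and U2932 its arrays stayed at or below 5.43 in every group. The responses of the lines differed at 6 h (F = 5.96, adjusted p = 0.00114) and at 24 h (F = 11.6, adjusted p = 1.54e-06), as they did for 63.3% and 82.7% of the genes tested. The averages over the lines were 0.10 at 6 h (95% interval 0.00 to 0.21, adjusted p = 0.0761) and 0.04 at 24 h (-0.06 to 0.15, adjusted p = 0.452).

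ABCG1 in HBL1 fell at 6 h and rose at 24 h. At 6 h the DMSO arrays read 6.53, 6.70 and 6.59 and the R406 arrays 5.94, 5.85 and 5.91 (-0.71 ± 0.13, 1.63-fold lower, adjusted p = 3.89e-05). At 24 h they read 7.05, 6.94 and 6.86 with DMSO and 7.94, 7.77 and 7.81 with R406 (0.89 ± 0.13, 1.85-fold, adjusted p = 1.28e-07). Neither pair of groups overlapped, and the change in response between the times was 1.60 ± 0.19 (adjusted p = 1.41e-09). Against the 0 h arrays, at 7.24, 7.44 and 7.41, the R406 values were at -1.46 at 6 h (adjusted p = 1.24e-13) and 0.48 at 24 h (adjusted p = 0.00211), so both directions held with either reference. In the DMSO arrays of HBL1 ABCG1 differed from 0 h by -0.76 ± 0.13 at 6 h (adjusted p = 1.23e-05) and -0.41 ± 0.13 after 24 h (adjusted p = 0.0172), the latter lost without 0 h replicate B or C or 24 h replicate C (-0.39 to -0.37).

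In DHL4 the sign of the ABCG1 response at 6 h depended on the reference. The arrays fell from 8.74, 8.80 and 8.68 at 0 h to 6.99, 7.02 and 7.00 with DMSO at 6 h, a log2 change of -1.74 ± 0.13 (3.33-fold lower, adjusted p = 2.51e-16), and read 8.60, 8.46 and 8.39 at 24 h. With R406 at 6 h they read 7.69, 7.81 and 7.84. This was 0.77 ± 0.13 above DMSO of the same time (1.71-fold, adjusted p = 1.55e-06) and at -0.96 against DMSO at 0 h (adjusted p = 8.84e-09). At 24 h R406 gave 8.24, 8.49 and 8.30 (-0.15 ± 0.13, adjusted p = 0.328, and called lower against 0 h at -0.40, adjusted p = 0.00644), and the response at 24 h minus that at 6 h was -0.92 ± 0.19 (adjusted p = 3.94e-05).

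In LY7 the ABCG1 arrays were also lowest with DMSO at 6 h. They read 6.15, 5.93 and 6.01 at 0 h and 5.37, 5.33 and 5.53 with DMSO at 6 h (-0.62 ± 0.13, adjusted p = 0.000331), and R406 arrays read 5.86, 5.84 and 5.69 (0.39 ± 0.13, adjusted p = 0.0136). Against 0 h the R406 arrays were at -0.24 (adjusted p = 0.128), and without DMSO 6 h replicate B the response to R406 was 0.34 (adjusted p = 0.0566). All 6 arrays of the LY7 response lay below 5.88. In DHL6 and U2932 the ABCG1 arrays lay between 4.33 and 5.26 in all groups and no response was called, from 0.02 to 0.18. The DHL6 response at 24 h, 0.18, was 0.37 and passed without DMSO replicate B (adjusted p = 0.0224).

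The average ABCG1 response was 0.11 at 6 h (95% interval -0.01 to 0.23, adjusted p = 0.112) and 0.18 ± 0.06 at 24 h (adjusted p = 0.00593). With the 0 h reference the averages were -0.48 (adjusted p = 3.58e-10) and 0.07 (adjusted p = 0.296). The lines differed in response at both times (F = 16.8, adjusted p = 3.13e-08 at 6 h, and F = 9.74, adjusted p = 1.06e-05 at 24 h).

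MYLIP, the ligase that acts on the low-density lipoprotein receptor, was called higher in 9 of 10 responses, as were 2.09% of the genes tested in at least 9. The largest response was in DHL4 at 24 h, where DMSO gave 8.49, 8.51 and 8.47 and R406 9.67, 9.78 and 9.70 (1.23 ± 0.05, 2.34-fold, adjusted p = 1.17e-30). DHL6 at 24 h had 8.40, 8.36 and 8.30 with DMSO and 9.13, 9.12 and 9.03 with R406 (0.74 ± 0.05, 1.67-fold, adjusted p = 2.86e-20). In HBL1 at 24 h the arrays went from 6.65, 6.78 and 6.68 to 7.16, 7.07 and 7.24 (0.45 ± 0.05, adjusted p = 5.11e-12). LY7 and U2932 rose by 0.37 ± 0.05 (adjusted p = 6.41e-10) and 0.28 ± 0.05 (adjusted p = 1.8e-06) at 24 h. In all 5 lines no DMSO array reached the lowest R406 array, a pattern whose share over all genes was not computed. A rise at 24 h in all 5 lines was called for 3.09% of the genes tested.

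At 6 h MYLIP rose in 4 lines. DHL4 read 8.16, 8.10 and 8.07 with DMSO and 8.84, 9.04 and 8.98 with R406 (0.84 ± 0.05, 1.79-fold, adjusted p = 1.04e-22). LY7 read 7.85, 7.87 and 7.82 with DMSO and 8.41, 8.46 and 8.47 with R406 (0.60 ± 0.05, 1.52-fold, adjusted p = 2.2e-16). U2932 and DHL6 rose by 0.46 ± 0.05 (adjusted p = 1.84e-11) and 0.38 ± 0.05 (adjusted p = 1.27e-09). The U2932 response was 0.49 without the scattered U2932 array (adjusted p = 6.17e-11). HBL1 was the exception, with 6.83, 6.66 and 6.82 for DMSO and 6.63, 6.71 and 6.76 for R406, which overlapped (-0.07, 95% interval -0.16 to 0.02, adjusted p = 0.324). The average over the lines was 0.44 ± 0.02 at 6 h (adjusted p = 6.74e-26) and 0.62 ± 0.02 at 24 h (1.53-fold, adjusted p = 3.36e-33).

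DHL4 carried a decline of MYLIP in the vehicle as well. The 0 h arrays at 9.58, 9.51 and 9.55 fell by 1.43 ± 0.05 with DMSO at 6 h (2.70-fold lower, adjusted p = 3.09e-32) and 1.06 ± 0.05 at 24 h (2.08-fold lower, adjusted p = 3.96e-26). Against 0 h the R406 arrays of DHL4 were lower at 6 h, with -0.59 (adjusted p = 1.79e-16), and higher at 24 h, with 0.17 (adjusted p = 0.00131). In the other lines MYLIP in the vehicle arrays differed from 0 h by -0.34 to 0.26, and the R406 responses against 0 h were 0.64 and 0.54 in DHL6, 0.26 and 0.29 in LY7, and 0.36 and 0.49 in U2932 at 6 and 24 h, all called. HBL1 had 0.10 (adjusted p = 0.0933) and 0.56 (adjusted p = 1.85e-15). With the reference at 0 h, MYLIP was thus higher in all 5 lines at 24 h and in 3 of 5 at 6 h. The share of all genes with such calls against 0 h was not computed.

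**Figure D3:**
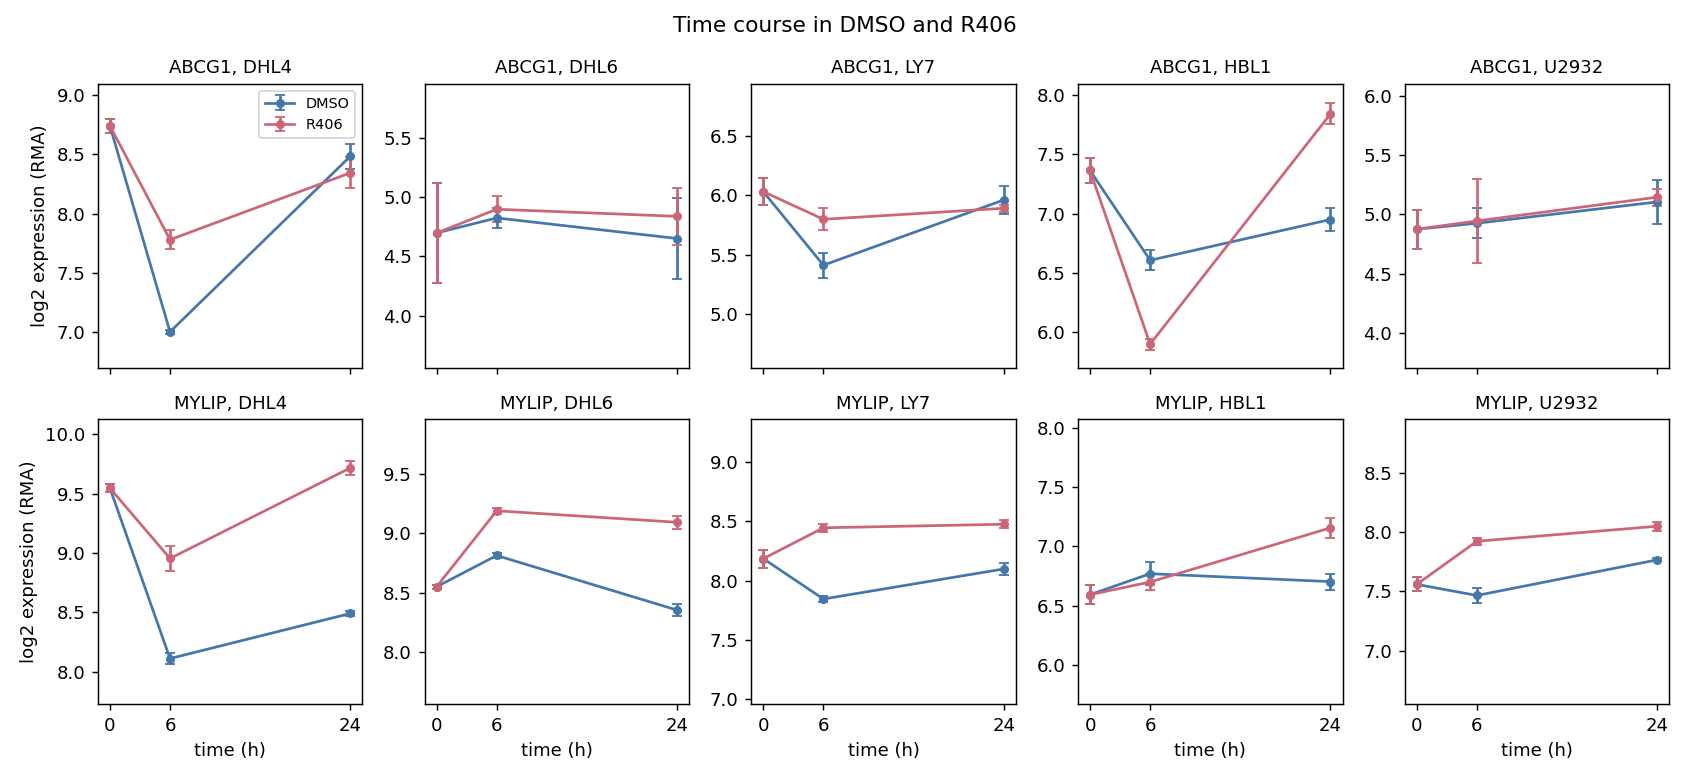
Time courses of ABCG1 (top) and MYLIP (bottom) in each line, log2 expression against hours, for DMSO and R406, with the DMSO group at 0 h as the shared start. Points are means of 3 arrays with SD, and every panel spans the same number of log2 units. In DHL4 both genes dropped with DMSO between 0 and 6 h, with log2 changes of -1.74 and -1.43, and lay higher with R406 than with DMSO at 6 h.

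LPCAT3, which remodels phospholipids, was called lower in 3 lines at 24 h and in no line at 6 h. The lines were DHL4, DHL6 and LY7, where 38.0%, 35.5% and 32.5% of all genes tested were called lower at 24 h. In DHL4 the DMSO arrays read 7.81, 7.80 and 7.79 and the R406 arrays 7.75, 7.15 and 7.51 (-0.33 ± 0.09, adjusted p = 0.000666). Replicate B was the lowest of the R406 arrays, and without it the difference was -0.17 (adjusted p = 0.0689). LY7 read 7.32, 7.31 and 7.20 with DMSO and 7.00, 6.92 and 7.18 with R406 (-0.24 ± 0.09, adjusted p = 0.014), and DHL6 7.44, 7.32 and 7.38 against 7.27, 7.05 and 7.18 (-0.21 ± 0.09, adjusted p = 0.032). The groups did not overlap in these 3 lines, nor in DHL6 at 6 h, where no change was called (-0.14, adjusted p = 0.223). Leaving out single arrays ended the LY7 call in 2 cases (-0.18, adjusted p = 0.0992 without R406 replicate B, and -0.22, adjusted p = 0.0502 without DMSO replicate A) and the DHL6 call in 4 (-0.22 to -0.15). The DHL6 call of LPCAT3 was also lost after cyclic loess normalization (-0.18, adjusted p = 0.0747) and with array weights (-0.19, adjusted p = 0.0746).

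LPCAT3 in HBL1 and U2932 had differences of 0.01 at 24 h, with 95% intervals of -0.16 to 0.19 and -0.16 to 0.18. The F-test over the lines gave 3.24 (adjusted p = 0.0238), and it no longer passed without DHL4 R406 replicate B (2.62), HBL1 DMSO replicate A (2.65) or U2932 DMSO replicate C (2.61). The average was -0.15 ± 0.04 at 24 h (adjusted p = 0.000447) and -0.06 ± 0.04 at 6 h (adjusted p = 0.208). The ACTB control probe sets, whose 3′ minus 5′ difference rises with RNA degradation, differed between R406 and DMSO at 24 h by 0.45 in DHL6, 0.42 in LY7, 0.29 in DHL4, 0.27 in U2932 and 0.10 in HBL1. At 6 h the same difference was 0.39 in LY7 and between -0.01 and 0.10 in the other lines. Its part in the results was not tested.

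HBL1 and U2932 are commonly classed as activated B-cell-like lines and DHL4, DHL6 and LY7 as germinal-centre B-cell-like lines. The labels do not give this division, and a class of so few lines cannot be told apart from the lines in it. The mean response of HBL1 and U2932 minus that of the other 3 lines was called lower for 2 of the 6 genes at 6 h, beside 20.1% of all genes called lower and 24.1% higher. These were ABCG1 (-0.75 ± 0.12, adjusted p = 6e-07) and MYLIP (-0.41 ± 0.04, adjusted p = 5e-12). The pair of lines did not move alike at 6 h: the response was -0.71 in HBL1 and 0.02 in U2932 for ABCG1, and -0.07 and 0.46 for MYLIP, the latter above the 0.38 of DHL6. At 24 h MYLIP was again lower (-0.41 ± 0.04, adjusted p = 3.19e-12), beside 23.1% of all genes, while ABCG1 (0.48 ± 0.12, adjusted p = 0.000661) and LPCAT3 (0.27 ± 0.08, adjusted p = 0.00253) were higher, beside 36.2%. The ABCG1 response at 24 h was 0.89 in HBL1 and 0.04 in U2932. The ABCG1 difference changed sign between the times. The MYLIP difference changed sign with the reference: against DMSO at 0 h it was 0.13 at 6 h (adjusted p = 0.00969) and 0.19 at 24 h (adjusted p = 0.000104).

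The change of response from 6 to 24 h was called for MYLIP in DHL4 (0.38 ± 0.07), DHL6 (0.36 ± 0.07) and HBL1 (0.52 ± 0.07), where it grew, and in LY7 (-0.23 ± 0.07, the 1 call of the 6 genes there, beside 19.8% of all genes called lower), where it shrank, with adjusted p at most 0.00587. The LY7 change was -0.15 after cyclic loess normalization (adjusted p = 0.0834). On average it grew by 0.17 ± 0.03 (adjusted p = 1.31e-06), the only average change of the 6 called, beside 58.7% of all genes. In DHL4 the responses of NR1H3 (-0.51), ABCG1 (-0.92) and LPCAT3 (-0.45 ± 0.12, adjusted p = 0.00164) were lower at 24 h than at 6 h, 3 of 6 genes beside 35.5% of all genes called lower, and MYLIP was higher, 1 of 6 beside 20.8%. In DHL6 the ABCA1 response was lower at 24 h (-0.43 ± 0.16, adjusted p = 0.0313), although neither of its DHL6 responses was called, and that call was lost on leaving out any of 5 arrays. After cyclic loess normalization this ABCA1 change was -0.56 (adjusted p = 0.00662) and the response at 24 h passed (-0.34, adjusted p = 0.0137), as it did with array medians subtracted (-0.31, adjusted p = 0.018) and in a fit of the DHL6 arrays alone (-0.24, adjusted p = 0.000951). All ABCA1 group means of DHL6 lay below 5.88. MYLIP was the 1 gene with a larger response at 24 h in DHL6, beside 14.9% of all genes, and 26.4% were called lower there. HBL1 had 2 of 6 genes with a larger response at 24 h, ABCG1 and MYLIP, beside 12.4%, and U2932 had no call, beside 22.8% of all genes called in either direction. The MYLIP change in U2932 was -0.17 (adjusted p = 0.0515) and passed without replicate A of DMSO 6 h (-0.21), R406 6 h (-0.19) or R406 24 h (-0.19). The NR1H2 change there was -0.41 (adjusted p = 0.0611) and passed without DMSO 6 h replicate B (-0.52, adjusted p = 0.0163).

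With DMSO alone, 3 of the 6 genes were lower on average at 6 h than at 0 h and 1 (NR1H3) was higher, beside 18.4% and 22.9% of all genes. ABCG1 fell by 0.59 ± 0.06 (adjusted p = 3.13e-12), MYLIP by 0.29 ± 0.02 (adjusted p = 2.7e-17) and ABCA1 by 0.22 ± 0.05 (adjusted p = 0.000338). At 24 h MYLIP (-0.21 ± 0.02) and LPCAT3 (-0.09 ± 0.04, adjusted p = 0.0486) were lower and NR1H3 was higher, beside 16.8% and 25.1%. DHL4 at 6 h had the most such changes, 4 genes lower (ABCG1, MYLIP, ABCA1 and LPCAT3) and 1 higher (NR1H3), where 15.1% of all genes were called lower and 16.9% higher. Of these, the LPCAT3 and NR1H3 calls were each lost on leaving out either of 2 arrays, with -0.21 for LPCAT3 and 0.25 to 0.30 for NR1H3, and the average LPCAT3 call at 24 h was lost with any of 19 arrays. All these arrays are vehicle arrays, so a change with time in culture and an effect of DMSO cannot be told apart.

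**Figure D4:**
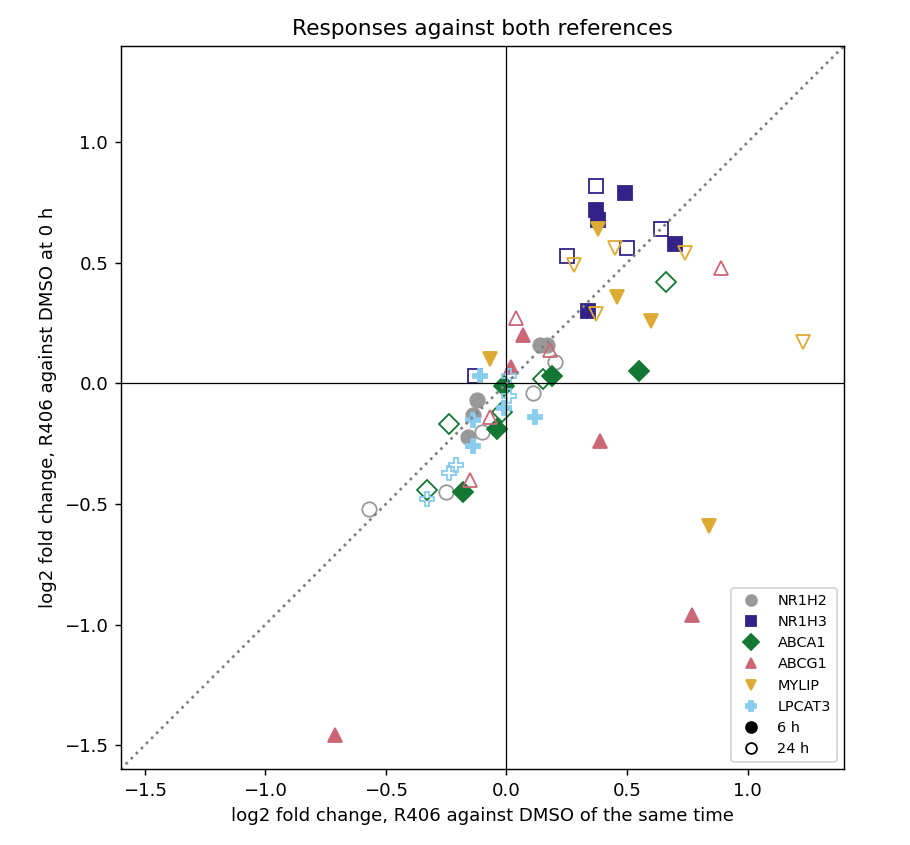
The 60 R406 responses against DMSO of the same time (horizontal, log2) and against DMSO at 0 h (vertical, log2), coloured by gene, with the line of equal values. Both axes use the same R406 arrays. Points in the lower right are higher against the first reference and lower against the second, among them ABCG1 in DHL4 at 6 h (0.77 and -0.96) and MYLIP in DHL4 at 6 h (0.84 and -0.59).

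Among the 6 genes, the responses over the 10 comparisons of line and time were most alike for ABCA1 and MYLIP (Pearson r = 0.60), given as a description since the comparisons share lines. ABCA1 and ABCG1 had r = 0.23, and NR1H3 had r = 0.42 with ABCG1, -0.43 with ABCA1 and -0.46 with MYLIP. The vehicle changes from 0 h use the same DMSO arrays of 6 and 24 h. For these, r was 0.71 for ABCA1 and MYLIP and 0.82 for ABCA1 and ABCG1. NR1H3 had -0.15 with ABCG1, -0.23 with ABCA1 and -0.41 with MYLIP. The part of the vehicle changes in the likeness of the responses was not tested. In DHL4 at 24 h the responses of MYLIP (1.23) and ABCA1 (0.66) were their highest, and that of NR1H3 (-0.13) was its lowest. Of the other 11761 genes tested, the one most like ABCA1 over the 10 responses was ENSG00000145779 (r = 0.967), called in all 10 comparisons, with its highest response in DHL4 at 24 h (0.43) and its lowest in LY7 at 24 h, where ABCA1 was also lowest, followed by DHL6 at 24 h (-0.85). It was higher in DHL4 at both times and lower elsewhere. The gene most like ABCG1 was ENSG00000261094 (r = 0.914), with responses from -0.15 in HBL1 at 6 h to 0.37 in DHL4 at 6 h and 2 of 10 called. Both genes were picked for the highest of many correlations over only 10 values, so their likeness follows from that choice. Both groups lay below 5.88 in 6 of the 10 ABCA1 responses and 5 of the 10 ABCG1 responses.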

How the data were processed

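RNA of 5 lymphoma lines was measured on 75 arrays, 3 for each of 25 groups taken from the labels. The authors deposited a table of log2 values, for which the submitters' processing notes name RMA without a version. RMA equalises the arrays' distributions, so a shift of most transcripts is not visible. The table has 19598 rows, 19536 of them genes and 62 controls. Depth does not apply to arrays, whose number limits the precision.

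From these values genes were kept where the highest group mean passed 5.88, the median of the gene values, which left 11767 and removed 7769. Group means were estimated together in limma 3.58.1 (R 4.3.3), from all arrays (50 residual degrees of freedom, eBayes, two-sided), with Benjamini-Hochberg adjustment over all genes within each contrast and calls at an adjusted p under 0.05. The procedure was tested on simulated data. The table carries no gene names and the gene table used here pairs none with Ensembl identifiers, so only the 6 genes named by identifier, plus the identifier most like ABCA1 and that most like ABCG1, are given, and the lists of further LXR, sterol and cell-type genes were not analysed here. The genes, lists and tests were chosen with earlier results of these data known. The replicate letters were checked for pairing: deviations of same-letter arrays correlated from -0.27 to 0.24, over 0.1 in 6 of 30 pairs, so they were not treated as pairs. Alternatives were cyclic loess, subtracted array medians, no filter, a stricter filter, a trended robust prior, array weights, a replicate block, DMSO at 0 h as reference, single-line fits, and leaving out each array. Promoter sequences are RefSeq's, GRCh38.p14.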

Additional observations from a re-analysis of the deposited data

Results flagged for a closer look

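These results were singled out because the R406 response differed between lines or between times by a test of the difference itself. The causes were not tested. Between the 5 lines the moderated F at 6 h was 5.96 for ABCA1, 16.8 for ABCG1 and 51.0 for MYLIP. At 24 h it was 7.15 for NR1H2, 6.56 for NR1H3, 11.6 for ABCA1, 9.74 for ABCG1, 65.8 for MYLIP and 3.24 for LPCAT3. Such a difference was called for 63.3% of all genes tested at 6 h and 82.7% at 24 h, so its presence alone does not set these genes apart. The LPCAT3 F no longer passed on leaving out any of 3 arrays.

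Between the times, the log2 response at 24 h minus that at 6 h was largest in ABCG1, the sterol transporter, at 1.60 in HBL1 and -0.92 in DHL4. For MYLIP, the ligase, it was 0.52 in HBL1, 0.38 in DHL4, 0.36 in DHL6, -0.23 in LY7 and 0.17 on average. In DHL4 it was -0.51 for NR1H3 and -0.45 for LPCAT3, and in DHL6 -0.43 for ABCA1. The ABCA1 call was lost on leaving out any of 5 arrays and kept after cyclic loess normalization.

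Between HBL1 with U2932 and the other 3 lines, the log2 response differed by -0.75 at 6 h and 0.48 at 24 h for ABCG1, by -0.41 at 6 h and -0.41 at 24 h for MYLIP, and by 0.27 at 24 h for LPCAT3. Against DMSO at 0 h the MYLIP difference had the other sign, 0.13 at 6 h and 0.19 at 24 h.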

How the results depend on the processing

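Of the 28 called R406 responses, 21 kept their call under every alternative that kept the DMSO reference of the same time. With the 0 h reference included, 18 did. Both counts take only alternatives in which the gene was tested, and the stricter filter left NR1H2, NR1H3 and ABCA1 untested. Over 5409 alternative values, 133 changed sign with no call before or after and 7 changed sign with a call. The replicate block gave 22 higher and 6 lower calls, as without it, and the paired fit changed no R406 response call. It ended 3 calls between lines at 0 h, NR1H3 in DHL4 minus DHL6 (0.29) and minus LY7 (0.22) and LPCAT3 in LY7 minus HBL1 (-0.11). In that fit a group level is the fitted level of replicate A, so these differences are not those of the 3-array means. The loss of these calls therefore does not show whether pairing matters for differences between lines. Leaving out single arrays gave 21 to 23 higher and 5 to 7 lower calls. The causes of the changes below were not tested, apart from those set by fewer genes or arrays.

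With DMSO at 0 h as reference 19 responses were higher and 12 lower. Shares of all genes were not computed for this reference. Against it ABCG1 became -0.96 in DHL4 and -0.24 in LY7 at 6 h, MYLIP became -0.59 in DHL4 at 6 h, and ABCA1 in DHL4 at 6 h lost its call (0.05). Calls were gained for NR1H2 in DHL6 (-0.45), NR1H3 in U2932 (0.53) and ABCG1 in DHL4 (-0.40) at 24 h and for ABCA1 (-0.45) and LPCAT3 (-0.26) in LY7 at 6 h. The averages became -0.12 for ABCA1, -0.48 for ABCG1 and -0.13 (now called) for LPCAT3 at 6 h and 0.07 (no longer called) for ABCG1 at 24 h. The MYLIP difference of HBL1 and U2932 from the other lines became 0.13 at 6 h and 0.19 at 24 h. The stricter filter, a highest group mean above 7.87, removed NR1H2, NR1H3 and ABCA1 and left 12 higher calls. Without a filter the average vehicle change of LPCAT3 at 24 h was -0.09, no longer called.

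After cyclic loess, calls were lost for NR1H2 on average at 24 h (-0.10) and for the F of LPCAT3 at 24 h (2.36), and gained for ABCA1 on average at 6 h (0.13), the NR1H3 difference between the line sets at 24 h (0.27) and its average change between the times (-0.20). Subtracting array medians added calls for the last pair (0.24 and -0.18) and for the change of LPCAT3 between the times (-0.14). Array weights added the NR1H2 line-set difference (-0.26) and F (2.86) at 6 h, the averages of ABCA1 (0.11) and ABCG1 (0.14) at 6 h, and the vehicle changes of ABCA1 at 24 h (-0.13) and LPCAT3 at 6 h (-0.08).

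Where single arrays decided a call, values ran over all arrays left out from 0.08 to 0.12 (ABCA1) and 0.08 to 0.15 (ABCG1) for the average at 6 h, and from -0.15 to -0.08 for NR1H2 at 24 h. The vehicle changes at 24 h ran from -0.13 to -0.08 (ABCA1), -0.15 to -0.06 (ABCG1) and -0.11 to -0.08 (LPCAT3), and the change of LPCAT3 between the times from -0.12 to -0.06. The line-set differences ran from -0.27 to -0.16 (ABCA1, 6 h), -0.24 to -0.13 (NR1H2, 24 h) and 0.14 to 0.28 (NR1H3, 24 h), and the F of LPCAT3 at 24 h from 2.61 to 5.88.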
